A study of Mus musculus with 9 samples.

Results

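Cytosolic ribosomal protein genes encode the proteins that, together with ribosomal RNA, form the large and small subunits of the ribosome outside the mitochondria. On the arrays of mouse cornea, lens and tendon, 35 such genes were represented, 17 of the large and 18 of the small subunit, among 8251 genes with a probe set of a single symbol. They were chosen by name: symbols beginning with Rpl or Rps and a digit or p, and Rpsa, without the kinases beginning with Rps6k and without pseudogenes. Of several probe sets for a gene, the one with the highest mean over the 9 arrays was used.

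The adult cornea came from mice 7 weeks old and had 3 arrays, and the cornea of postnatal day 10 (P10) had 2. The lens and the flexor digitorum longus tendon, both from mice 7 weeks old, had 2 arrays each. The corneas were cut free of the limbus and their epithelium was scraped away before RNA extraction, and the submitters judged from marker genes that some epithelial RNA remained, and lens and tendon tissue was pooled for extraction. No group was treated, and strain, sex and genotype are not given in the sources used here. Each array stands for an independent RNA preparation, and p-values reflect how far such preparations differ. The cornea arrays had also served an earlier study of cultured corneal cells, so tissue and any difference between array runs cannot be told apart in comparisons of cornea with lens or tendon. In whole tissue, fewer cells of a type and less RNA per cell cannot be told apart either.

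Each ribosome holds 1 copy of nearly every ribosomal protein, and growing cells spend much of their transcription on making them. The mRNAs of these genes typically start with a cytosine followed by an unbroken run of pyrimidines, the 5′ terminal oligopyrimidine (TOP) tract, through which mTOR and its target LARP1 set their translation. The mRNA level that an array measures is therefore only part of what sets the output of ribosomal proteins. In the cornea, keratocytes and epithelium differ in how much protein they make, and mature lens fibre cells lose their nuclei and ribosomes.

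The pyrimidine runs around the annotated start sites are shown because the TOP tract is a run of this kind and the choice by name did not use it. RefSeq start-site windows of build GRCm38.p6 were at hand for 28 of the 35 genes. Each line gives 30 bases around the longest run of C and T found between 50 bases before and 50 bases after the annotated start, 5′ to 3′ on the strand of the gene, with the run in capitals. The 9 genes shown are ones whose levels are described in what follows, and the last is a gene with a short run.
Rpl7a, chr2:26910788-26910817, plus strand: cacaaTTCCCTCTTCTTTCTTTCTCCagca
Rps24, chr14:24490710-24490739, plus strand: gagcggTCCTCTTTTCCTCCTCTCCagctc
Rpl13a, chr7:45128722-45128751, minus strand: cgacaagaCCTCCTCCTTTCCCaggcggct
Rpl22, chr4:152325679-152325708, plus strand: ccgtctgaCTCCTCCCTTTCCCgacagccg
Rpl37a, chr1:72711274-72711303, plus strand: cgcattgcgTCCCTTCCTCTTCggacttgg
Rps10, chr17:27635227-27635256, minus strand: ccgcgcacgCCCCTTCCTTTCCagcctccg
Rpl10a, chr17:28328572-28328601, plus strand: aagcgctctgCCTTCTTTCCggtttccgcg
Rplp0, chr5:115559466-115559495, plus strand: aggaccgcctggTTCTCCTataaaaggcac
Rps3, chr7:99483739-99483768, minus strand: cgcaaaacttcaTTTCCCatgcaaaacttc
The runs ranged from 21 bases in Rpl7a and 19 in Rps24 to 6 in Rps3 among the genes shown. Their median over the 28 genes was 10.5 bases, against 7 over the 6572 genes of the array that have such a window. A run of at least 8 bases was found for 20 of the 28 genes (71.4%) and for 38.6% of the genes of the array. A run is a match of letters and need not be a TOP tract or lie at the cap, and the counts include runs away from the start. Relative to the annotated start, those of Rps24, Rpl22 and Rps3 began at -37, -39 and -47 and ended before it. Those of Rplp0, Rpl10a and Rpl37a began at 11, 17 and 23, after it. Those of Rpl7a, Rpl13a and Rps10 began at -14, 2 and -3. A run at the edge of the window may be longer than shown.

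Short motifs were also searched on both strands of the whole window, from 250 bases before to 50 after the start. The letters CCGGAAG, a core that Ets-family factors such as GABP recognise, occurred in 12 of the 28 windows (42.9%), among them those of Rps10, Rpl19 and Rpl41, against 17.1% of the windows of genes on the array. The letters AAGATGG, the core of the YY1 motif, occurred in 7 of 28 (25%), among them Rpl7a, Rpl13a and Rpl22, against 7.85%. The TATA box letters TATAAA occurred in 4 of 28 (14.3%), among them Rplp0 and Rpl22, against 12.2%. No motif contains another, although the reverse complement of the first holds a stretch of pyrimidines that can fall in a run. Rpl10a had none of the 3 motifs in its window.

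The deposited value of a probe set is an expression index in arbitrary units on a linear scale, and all levels are given in it. Levels of different genes also differ through their probes, so they are set side by side only as a description. Of the 35 probe sets, 21, with 9 of the large and 12 of the small subunit, had a mean above 500, and their single values lay between 570 and 6350. The other 14 had a mean under 300, with 236 as the highest, and 10 of them lay under 100. Rpl41, a very short basic protein of the large subunit, had the highest index, with 5787, 6090.1 and 6080.4 in adult cornea, 5644 and 6193 in P10 cornea, 5856 and 6307 in lens and 5309 and 6349.9 in tendon. The 4 groups overlapped for this gene, and their means on the log2 scale spanned 0.07. Next in index were Rps24, a small-subunit protein mutated in Diamond-Blackfan anaemia, with a mean of 4551 over the 9 arrays, and Rplp0, the base of the acidic stalk that binds elongation factors, with 4122. The other probe set of Rps24 had a mean of 77.0.

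At the low end, Rps20, Rpl38 and Rpl32 had means of 21.3, 17.9 and 14.2, although each is a standard part of every ribosome. Their probe sets never reached the median of an array, and Rpl32 was below 0 on both lens arrays. The low members give no measure of how much of that mRNA was present. Probe sets that reached their array's median on fewer than 2 arrays were not tested, which left out Rpl32, Rpl35a, Rpl38, Rpl39, Rpl7l1, Rps14, Rps15 and Rps20. Of the 27 tested genes, 24 reached the median on all 9 arrays. The exceptions were Rpl39l, on 8 arrays, Rpl13a, on 7 and on none of the tendon arrays, and Rps4l, on the 5 cornea arrays only. Rps4l and Rpl13a thus passed through the groups in which they were high.

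**Figure D1:**
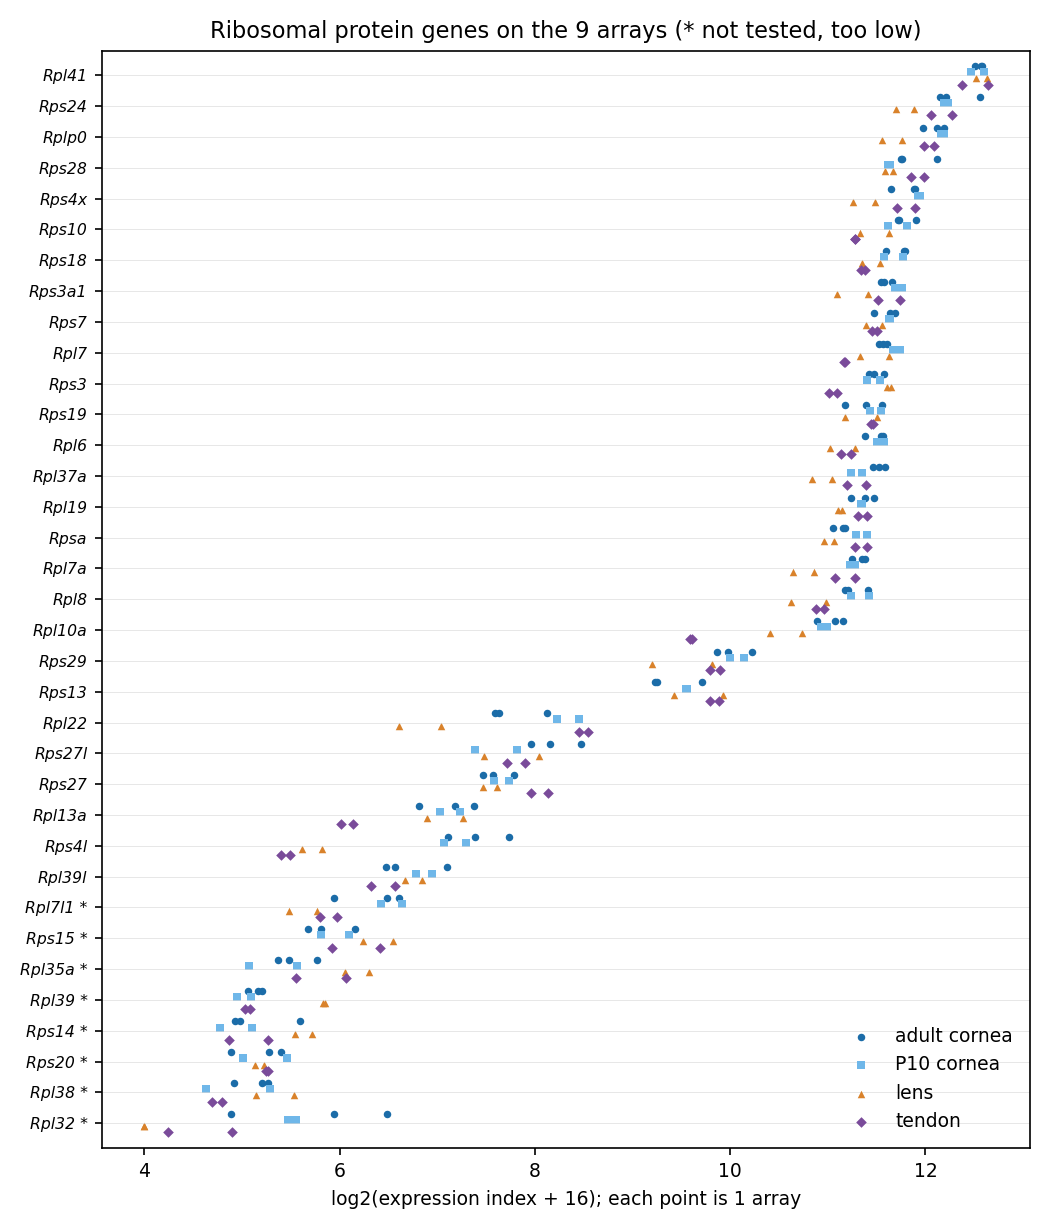
Log2 of the expression index plus 16 for the 35 ribosomal protein genes on each of the 9 arrays, ordered by mean, with 1 symbol shape and colour per group; genes marked with an asterisk were too low to be tested. Most genes with an index above 500 show closely packed points, while Rpl10a (low in tendon), Rpl22 (low in lens) and Rps4l (high in both corneas) are spread out.

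As a class the genes ranked near the top of every array. The median percentile of the 35 genes within an array was 99.3 in adult cornea, 99.3 in P10 cornea, 98.9 in lens and 98.6 in tendon, as means over arrays. Together they held 2.92%, 3.25% and 3.39% of the summed index on the adult cornea arrays (3.18% ± 0.241, SD, n = 3) and 2.91% and 2.94% on the P10 arrays. Lens arrays gave 2.5% and 2.56%, and tendon arrays 2.51% and 2.57%. All 5 cornea arrays lay above all 4 arrays of lens and tendon in this share. The share sums over the chosen genes and is given as a description, with no test.

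**Figure D2:**
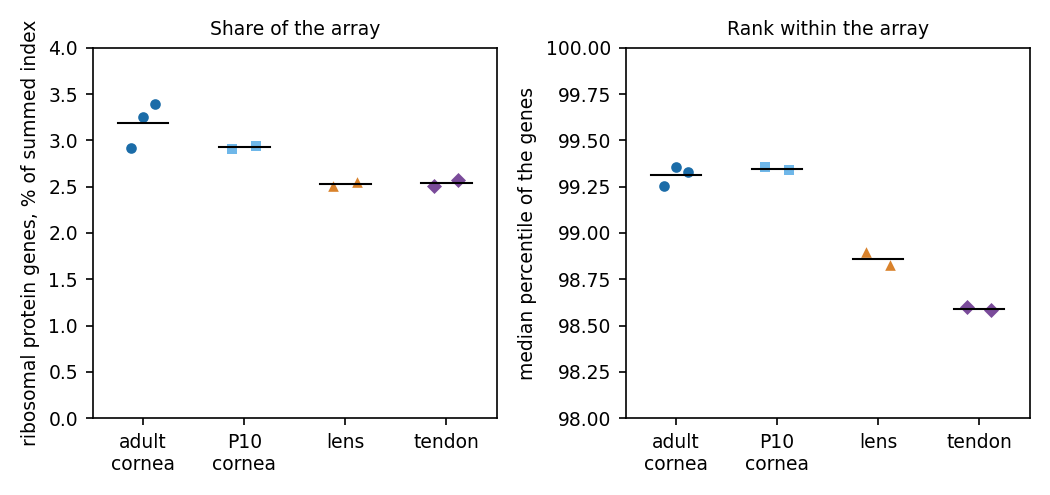
Left, the share of each array's summed index held by the 35 ribosomal protein genes (%); right, their median percentile within the array. Points are arrays and lines are group means; the cornea arrays lie between 2.91% and 3.39%, and the lens and tendon arrays between 2.5% and 2.57%.

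Several properties of the preparations moved with these groups. Summed levels of 10 epithelial markers, of which 9, Krt12 among them but not Krt5, were called higher in either cornea than in lens and tendon, were 22569 to 25196 in adult cornea and 24935 to 25566 in P10 cornea, against 2802 to 3510 in lens and 699 to 1450 in tendon. The 8 keratocyte and fibroblast markers summed to 7157 to 8197 in adult cornea, 18986 to 19426 in P10 cornea, 568 to 740 in lens and 27637 to 29970 in tendon. The 7 leukocyte markers summed to 723 to 752, 1007 to 1238, 582 to 631 and 3173 to 3433 in the same order. The 11 skeletal muscle markers summed to 42257 to 50568 in tendon and to at most 1085 elsewhere. The 9 measured proliferation markers summed to 1540 to 1865 in adult cornea, 1685 to 2329 in P10 cornea, 887 to 989 in lens and 995 to 1048 in tendon. The 7 measured lens markers summed to 35519 to 37141 in lens, 4540 to 10135 in the corneas and 553 to 601 in tendon. The 3′ to 5′ ratio of the Gapdh control probe sets, a sign of RNA integrity, was 2.25 on adult cornea replicate 1 and 0.831 to 1.04 on the other arrays. The same ratio of the beta-actin control probe sets was 4.69 on adult cornea replicate 1 and 1.61 to 2.07 on the other cornea and lens arrays. On the tendon arrays it was 1.12 and 1.07. The part of each of these in the differences of ribosomal protein genes was not tested.

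For all tests, log2 of the index plus 16 was fitted with limma over all 9 arrays and 8154 probe sets, and a call is an adjusted p under 0.05. Tissue differences of the ribosomal protein genes were in the median smaller than those of all tested probe sets. The 4 group means of a gene spanned a median of 0.52 on the log2 scale (1.43-fold) over the 27 tested members, against 1.11 (2.16-fold) over all tested probe sets. For 23 of the 27 the span was under 1, against 44.5% of all tested. The exceptions were Rps4l, Rpl22, Rpl10a and Rpl13a. The median percentile of the tested members within an array was 99.0 in tendon and 99.5 in adult cornea. Their spans and sizes of difference were not compared with those of probe sets at a like level, here or below. The group with the lowest mean was lens for 16 genes and tendon for 9, and the group with the highest was P10 cornea for 12 and adult cornea for 9. Over all tested probe sets lens was lowest in 41.0% and tendon in 28.2%. The matching shares for the highest group are not given, so those counts cannot be set against all tested probe sets.

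Between adult and P10 cornea, the comparison of corneal maturation, limma called none of the 27 genes at an adjusted p under 0.05, against 4.57% of all tested probe sets, 0.699% higher and 3.88% lower in the adult. The methods' t-test with its fold and difference limits also found 0, and 2 genes had an unadjusted p under 0.05. The median difference of the members, adult minus P10, was -0.03, against -0.13 over all tested probe sets, and it became 0.15 after median centring. The median size of a member's difference, regardless of sign, was 0.084, against 0.22 over all tested. Leaving out any 1 array gave no call.

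The 2 genes with an unadjusted p under 0.05 were Rps27l and Rpl22. Rps27l, a paralog of Rps27 that p53 induces, measured 339.9, 269.7 and 233 in adult cornea and 209 and 151 at P10. All adult arrays lay above both P10 arrays, and the difference was 0.60 ± 0.25 on the log2 scale (SE, 1.51-fold, adjusted p = 0.262). Rpl22, an RNA-binding protein at the surface of the large subunit that mice can live without, measured 177, 183 and 263 in adult cornea and 283 and 333 at P10. The adult arrays lay below the P10 arrays, and the difference was -0.55 ± 0.23 on the log2 scale (SE, 1.47-fold, adjusted p = 0.264). A second probe set of Rpl22 also had all adult arrays below both P10 arrays. Its difference was -0.74 ± 0.23 on the log2 scale (SE, 1.68-fold, limma adjusted p = 0.123), which was not a call. Of 19 other runs of the limma fit, 1, which averaged the probe sets of each gene, called Rpl22 (adjusted p = 0.0442). The other 18 did not. Rps27 itself measured 179.8 ± 22.2 (SD, n = 3) and 186 ± 15.7 (SD, n = 2), with overlapping arrays.

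Against the adult lens, 9 of the 27 genes were higher in adult cornea and none lower, where 51.2% of all tested probe sets were called, 27.2% as higher. The share of members called, 33.3%, was thus below the share of all tested probe sets called. The members' median difference was 0.31, against 0.08 over all tested, and lay between 0.26 and 0.36 under the other scalings. Without lens replicate 2 the calls fell to 4 and without adult cornea replicate 2 to 5, and without the 7 other arrays they numbered 7 to 12. The fit of only these groups called 4 and trimmed mean scaling 14, where 53.3% of all tested probe sets were called. For the single omissions and the fit of only these groups, that share is not given, here and in the comparisons below. Counts of calls in them do not show whether members lost calls more often than all tested probe sets.

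**Figure D3:**
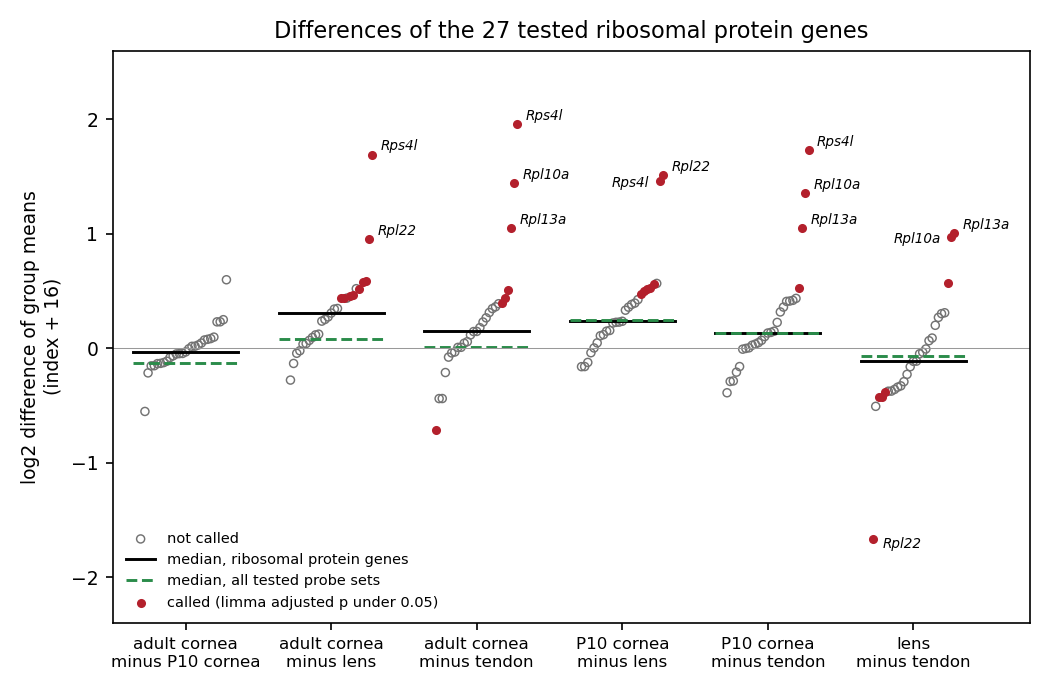
Log2 difference of group means (index + 16) of the 27 tested ribosomal protein genes in the 6 comparisons, with filled points for called genes; solid lines give the median of the genes and dashed lines that of all tested probe sets. Most genes lie within 0.5 of 0, and the genes beyond 1 are Rps4l, Rpl22, Rpl10a and Rpl13a; under other scalings the median turns positive in lens minus tendon (0.14) and in adult minus P10 cornea (0.15) and negative in P10 cornea minus tendon (-0.02).

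The largest difference from lens was that of Rps4l, a gene for a protein like ribosomal protein S4. Its index was 151, 197 and 122 in adult cornea, 141 and 118 in P10 cornea, 40.5 and 33.1 in lens and 29.1 and 26.4 in tendon. All 5 cornea arrays lay above all 4 others. Adult cornea exceeded lens by 1.69 ± 0.22 on the log2 scale (SE, 3.23-fold, adjusted p = 0.000118), and this call held in all 19 alternatives of the limma fit, which are 10 other settings and the omission of each array. P10 cornea exceeded lens by 1.46 ± 0.24 on the log2 scale (SE, 2.75-fold, adjusted p = 0.000657), but the difference was 0.36 (adjusted p = 0.094) for the mean over probe sets. The lens and tendon values lay under the medians of their arrays, and Rps4l entered the tests only through the cornea arrays, where it is high. Its differences are therefore a description, and their size depends on low values.

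Among abundant members, Rpl37a, a zinc-finger protein of the large subunit, measured 2929.9, 2807 and 3066 in adult cornea and 2088 and 1809 in lens. Adult cornea was higher by 0.59 ± 0.14 on the log2 scale (SE, 1.5-fold, adjusted p = 0.00582). Rpl7a, a large-subunit protein with the longest pyrimidine run among the sequences shown, measured 2422, 2646 and 2593 in adult cornea and 1843 and 1578 in lens. The groups did not overlap for either gene. The difference of Rpl7a was 0.58 ± 0.14 on the log2 scale (SE, 1.49-fold, adjusted p = 0.00727). Both calls held in all 19 alternatives of the limma fit. Neither difference reached the 2-fold limit of the methods' t-test, so that test could not have found these genes. It found Rps4l alone in this comparison.

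Rplp0, which is often taken as a reference gene for PCR, measured 4008, 4658 and 4414 in adult cornea, 4657 and 4551 in P10 cornea, 3457 and 2984 in lens and 4023 and 4346 in tendon. The lens arrays lay below all others. Adult cornea exceeded lens by 0.44 ± 0.13 on the log2 scale (SE, 1.35-fold, adjusted p = 0.0178), but the adjusted p was 0.0937 without lens replicate 2 and 0.0552 without adult cornea replicate 2. The remaining genes higher in adult cornea than in lens were Rpl22, Rps24, Rps4x, Rpl10a and Rpl8, the last near the catalytic centre of the large subunit. Their folds lay between 1.35 for Rps4x and 1.94 for Rpl22. The call of Rpl22 was lost without lens replicate 1 (adjusted p = 0.0512) and that of Rps24 without lens replicate 2 (adjusted p = 0.103). The mean over probe sets moved the difference of Rps24 from 0.52 to 0.18 (adjusted p = 0.4), and its call was also lost in the fit of only these groups and with the replicate block. The call of Rps4x was lost without lens replicate 2, adult cornea replicate 2 or adult cornea replicate 3 (adjusted p between 0.0641 and 0.143). Those of Rpl10a and Rpl8 were each lost in 7 of the 9 single-array omissions, lens replicate 2 among them (adjusted p up to 0.185 and 0.217).

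The P10 cornea was higher than lens in 7 of 27 genes and lower in none, against 51.0% of all tested probe sets called, 31.6% as higher. The median difference of the members, 0.24, was close to that of all tested, 0.25. After median centring both fell near 0, at 0.00 and 0.01. The calls then became 2 higher and 1 lower, where 48.9% of all tested probe sets were called. Leaving out lens replicate 2 or either P10 array left 2 calls, and leaving out lens replicate 1 gave 11. The share of all tested probe sets called in these omissions is not given. The calls of the main fit were Rps4l, Rpl22, Rplp0, Rps4x, Rpl7a, Rps3a1 and Rpl8. That of Rps4l is a description because of how it passed the filter. Rpl22, at 81.8 and 116 in lens and 283 and 333 in P10 cornea, differed by 1.51 ± 0.25 on the log2 scale (SE, 2.85-fold, adjusted p = 0.000746). Both lens arrays lay below both P10 arrays, and the call held in all 19 alternatives. The calls of Rplp0, Rps4x, Rpl7a, Rps3a1 and Rpl8 were lost without lens replicate 2 and without either P10 array, with an adjusted p between 0.0547 and 0.177.

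Against tendon, 7 of 27 genes were called in adult cornea, 6 higher and 1 lower, where 35.0% of all tested probe sets were called, 16.1% as higher and 18.9% as lower. The members' median difference was 0.15, against 0.01 over all tested, and was positive under each scaling. Quantile normalization, which gives all arrays the same distribution of values, called 18 higher and none lower and moved the median to 0.48. Of all tested probe sets 37.8% were then called. Members were thus called more often than all tested under that scaling and less often in the main fit. Without tendon replicate 1 the calls fell to 2, without tendon replicate 2 to 3 and without adult cornea replicate 2 to 4. The share of all tested probe sets called in these omissions is not given, so the fall need not be particular to the members. The calls that held in all 19 alternatives were those of Rpl10a and of Rps4l, which entered the tests only through the cornea arrays.

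Rpl10a, a protein of the stalk at the ribosome's exit site for tRNA, measured 1885, 2266 and 2138 in adult cornea, 2013 and 1929 in P10 cornea, 1688 and 1347 in lens and 755 and 766 in tendon. Both tendon arrays lay below all 7 other arrays. Adult cornea exceeded tendon by 1.44 ± 0.16 on the log2 scale (SE, 2.71-fold, adjusted p = 6.89e-05), P10 cornea by 1.36 ± 0.18 on the log2 scale (SE, 2.56-fold, adjusted p = 0.000333) and lens by 0.97 ± 0.18 on the log2 scale (SE, 1.96-fold, adjusted p = 0.00118), each in all 19 alternatives of the limma fit. The difference between adult cornea and lens was 0.47 ± 0.16 on the log2 scale (SE, 1.38-fold, adjusted p = 0.0339), a call lost in 7 of the 9 single-array omissions (adjusted p up to 0.185). The next probe set of Rpl10a was also lowest in tendon, with 1607, 1209 and 880.4 in adult cornea, 1124 and 872 in P10 cornea, 1259 and 769.7 in lens and 368 and 341 in tendon. Its difference between adult cornea and tendon was 1.71 ± 0.28 on the log2 scale (SE, 3.28-fold, adjusted p = 0.000977).

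Rps4l, with the values given above, exceeded tendon by 1.96 ± 0.22 on the log2 scale (SE, 3.89-fold, adjusted p = 6.1e-05) in adult cornea and by 1.73 ± 0.24 on the log2 scale (SE, 3.32-fold, adjusted p = 0.000458) in P10 cornea, again a description because of how it passed the filter. Rpl13a, which also silences inflammatory mRNAs when released from the ribosome, measured 129.6, 149.6 and 96.7 in adult cornea, 134 and 115 in P10 cornea, 138 and 103 in lens and 48.6 and 54.6 in tendon. Tendon lay below every other array, but the level elsewhere was near the array medians, which were 67.6 to 88.0. Rpl13a reached the median on none of the tendon arrays, so its differences from tendon are a description too. Adult cornea exceeded tendon by 1.05 ± 0.22 on the log2 scale (SE, 2.07-fold, adjusted p = 0.00389), with an adjusted p of 0.0501 without tendon replicate 1. For P10 cornea the difference was 1.05 ± 0.24 on the log2 scale (SE, 2.07-fold, adjusted p = 0.00909), and the adjusted p was 0.0819 without P10 replicate 1 and 0.0807 without tendon replicate 1.

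Smaller differences from tendon were called for Rps10, Rps3 and Rpl7. Rps10, a small-subunit protein modified when ribosomes stall, measured 3379, 3827 and 3364 in adult cornea and 2475 and 2464 in tendon. The groups did not overlap, and adult cornea was higher by 0.51 ± 0.15 on the log2 scale (SE, 1.42-fold, adjusted p = 0.0212); without either tendon array the adjusted p was 0.12, and without adult cornea replicate 2 it was 0.0605. Rps3, at the entry channel for mRNA, measured 2735, 3028 and 2836 in adult cornea and 2053 and 2170.1 in tendon, a difference of 0.44 ± 0.13 on the log2 scale (SE, 1.35-fold, adjusted p = 0.0242) that was lost without either tendon array or adult cornea replicate 2 (adjusted p between 0.0614 and 0.175). Rpl7, which binds RNA in the large subunit, was lower in tendon than in cornea of either age (1.32-fold, adjusted p = 0.0466 against adult, 1.44-fold, adjusted p = 0.0262 against P10). With the mean over probe sets these differences were 0.10 against adult (adjusted p = 0.73) and 0.13 against P10 (adjusted p = 0.693). Its call against adult cornea was lost in 7 of 9 single-array omissions, all but those of the lens (adjusted p up to 0.197). Its call against P10 cornea was lost without either P10 or either tendon array (adjusted p between 0.105 and 0.142).

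The P10 cornea was higher than tendon in 4 of 27 genes, Rps4l, Rpl10a, Rpl13a and Rpl7, and lower in none, against 26.7% of all tested probe sets called, 15.7% as higher. The calls of Rps4l and Rpl13a are descriptions because of how these genes passed the filter. The median of the members was 0.13, close to that of all tested at 0.13. Median centring turned it to -0.02. Quantile normalization raised it to 0.43, with 16 calls, where 29.1% of all tested probe sets were then called. That share is not given for the omissions. Without tendon replicate 1 or P10 replicate 1, 2 calls were left.

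Between lens and tendon, limma called 7 of 27 genes, 3 higher in lens and 4 lower, against 49.0% of all tested probe sets, 22.6% as higher and 26.4% as lower. The members' median was -0.11, against -0.07 over all tested, but 0.14 after quantile normalization, with 9 genes higher and 1 lower. That scaling called 49.8% of all tested probe sets. Without tendon replicate 1 the calls numbered 3, and without tendon replicate 2 or either P10 array they numbered 4. The share of all tested probe sets called in these omissions is not given. In the main fit Rpl10a, Rpl13a and Rps3 were higher in lens. Rps3 measured 3193 and 3093 in lens, the highest of its values, against 2053 and 2170.1 in tendon, a difference of 0.57 ± 0.14 on the log2 scale (SE, 1.49-fold, adjusted p = 0.00736). The adjusted p was 0.0627 without tendon replicate 1. Rpl13a differed by 1.01 ± 0.24 on the log2 scale (SE, 2.01-fold, adjusted p = 0.00562). It kept its call in all 19 alternatives of the limma fit, but this is a description because of how Rpl13a passed the filter. The methods' t-test found Rpl22 alone in this comparison.

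The genes lower in lens than in tendon were Rpl22, Rps4x, Rpl7a and Rplp0. For Rpl22 the difference was -1.67 ± 0.25 on the log2 scale (SE, 3.18-fold, adjusted p = 0.000335), the largest of a ribosomal protein gene in this comparison, and it held in all 19 alternatives. The next probe set of Rpl22 had the opposite sign and was not called, with 0.29 ± 0.25 on the log2 scale (SE, limma adjusted p = 0.382). The differences of Rps4x, Rpl7a and Rplp0 were 1.35-fold, 1.35-fold and 1.30-fold. Rpl7a lost its call in 13 of the 19 alternatives and Rps4x and Rplp0 in 14, among them those without lens replicate 2 or either tendon array (adjusted p up to 0.26). The difference of Rplp0 turned to 0.04 under quantile normalization (adjusted p = 0.82) and that of Rps4x to 0.21 with the mean over probe sets (adjusted p = 0.343).

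Of 162 tests, 27 genes in 6 comparisons, 34 gave a call, and 11 of these reached 2-fold. All 11 belonged to Rps4l, Rpl22, Rpl10a and Rpl13a, and those of Rps4l and Rpl13a are descriptions because of how these genes passed the filter. At 2-fold or more, 1 member was called in adult cornea against lens, where 33.3% of all tested probe sets were, and 3 against tendon, where 22.8% were. The methods' t-test with its limits found Rps4l for adult cornea against lens, Rpl10a and Rps4l for either cornea against tendon, and Rpl22 for P10 cornea against lens and for lens against tendon. Among all tested probe sets it found 1773 and 1296 for adult cornea against lens and tendon. For P10 cornea it found 1813 and 1131, and between lens and tendon 1940. These comparisons share arrays, so a group that stands apart enters several of them. With no filter on low values the calls among all 35 genes numbered 0 between the corneas, 9 and 6 for adult cornea against lens and tendon, 10 and 3 for P10 cornea, and 5 between lens and tendon. The shares of all 12422 probe sets called were then 3.41%, 40.8%, 26.2%, 40.2%, 19.6% and 39.1% in the same order. Rpl32, Rpl35a, Rpl39 and Rpl7l1, too low for the filter, were among the calls.

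For 10 of the 35 genes the array held several probe sets, and for several of them these differed between tissues in different ways. Rpl22, Rps4l and Rps4x are given in full. The next probe set of Rpl22 measured 163, 136 and 103 in adult cornea, 255 and 211 in P10 cornea, 117 and 77.7 in lens and 76.3 and 75.2 in tendon. It was highest in P10 cornea and, unlike the probe set used, low in tendon. Adult cornea exceeded tendon by 0.69 ± 0.23 on the log2 scale (SE, 1.61-fold, adjusted p = 0.0425) in it, while the probe set used gave -0.71 ± 0.23 on the log2 scale (SE, 1.64-fold, adjusted p = 0.0336). The latter call was lost in 10 of 19 alternatives, with a difference of -0.01 for the mean over probe sets and with an adjusted p of 0.102 without adult cornea replicate 1 and 0.19 without tendon replicate 1. Both probe sets were higher in P10 cornea than in lens, the next one by 1.15 ± 0.25 on the log2 scale (SE, 2.22-fold, adjusted p = 0.00418). Between adult cornea and lens the next one was not called (0.40, limma adjusted p = 0.173), unlike the one used.

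The next probe set of Rps4l measured 68.0 and 72.1 in lens and between 31.8 and 39.8 on the other arrays. It stayed under the array medians on all but 1 array and was not tested; its lens arrays were the highest, unlike in the probe set used. The probe set used for Rps4l bears a suffix that marks probes shared by similar transcripts. For Rps4x, the X-linked ribosomal protein S4, the probe set used measured 3185, 3792 and 3759 in adult cornea, 2847 and 2436 in lens and 3323 and 3793 in tendon. A second one measured 619 and 698 in lens and 49.8 to 73.0 on the other arrays. Lens exceeded tendon in it by 3.18 ± 0.21 on the log2 scale (SE, 9.08-fold, adjusted p = 1.13e-06), so the mean over the probe sets of Rps4x gave a difference between adult cornea and lens of -0.26, opposite in sign to that of the probe set used. For Rps29 the next probe set was highest in lens, with 99.0 and 116 against 57.0 to 97.8 elsewhere, where the one used had its lowest mean. For Rps24 it measured 70.9 and 87.2 in lens and 71.3, 57.9 and 79.6 in adult cornea and was not low in lens. The untested next probe set of Rpl7 was lowest in lens (11.2 and 14.9) and not low in tendon (45.3 and 46.5). For Rps28 the 2 high probe sets measured at least 3053 on every array and neither was called.

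**Figure D4:**
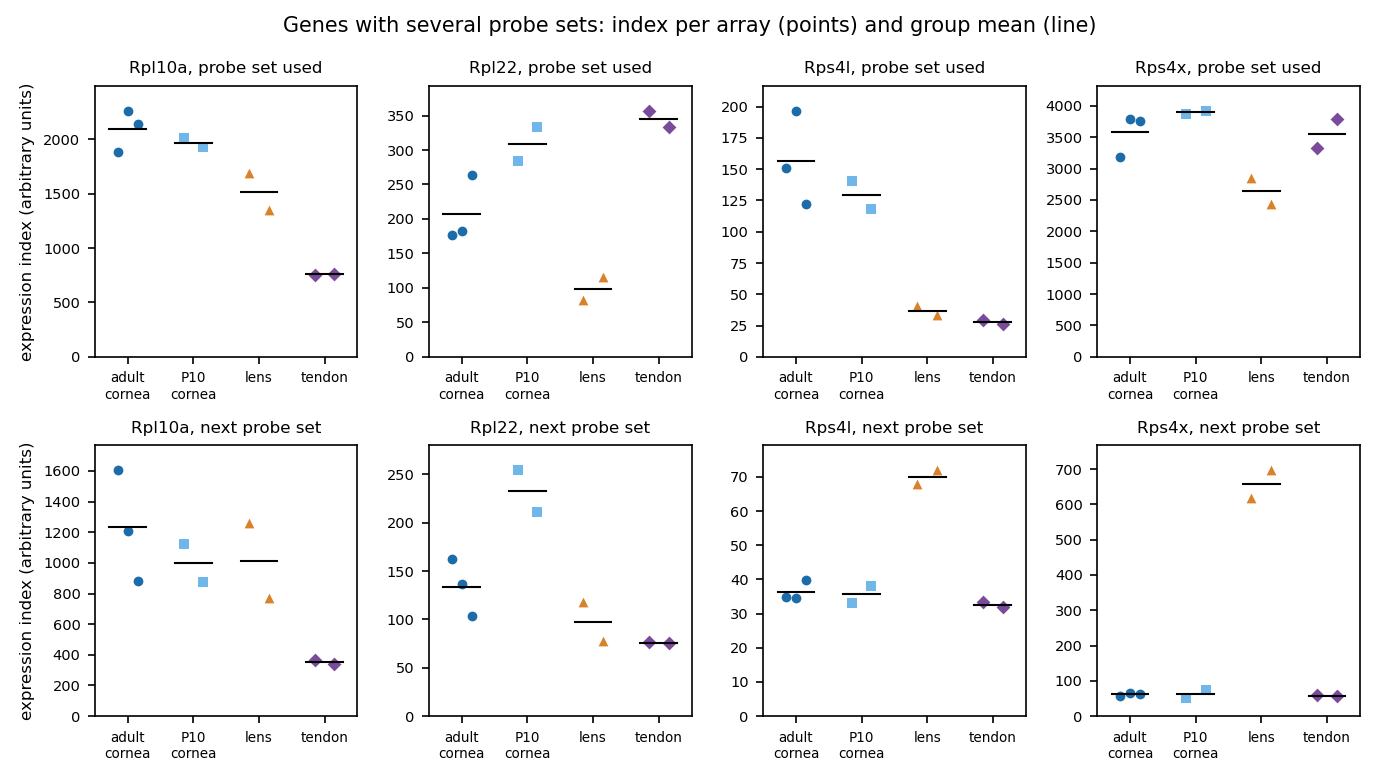
Expression index per array (points, arbitrary units) and group mean (lines) for the probe set used and the next probe set of genes with several. The 2 probe sets of Rpl10a are both lowest in tendon, while those of Rpl22 differ in tendon and those of Rps4l and Rps4x differ in lens.

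Several members are paralogs of core ribosomal proteins or have roles outside the ribosome. Rpl39l, known best from testis, measured 90.9 ± 26.5 (SD, n = 3) in adult cornea and 71.6 ± 10.5 (SD, n = 2) in tendon, with no call in any comparison. Rpl39 itself was not tested; it measured 41.9 and 41.0 in lens and between 14.9 and 21.0 on the other arrays. Rpl7l1, a relative of Rpl7 with a part in building the large subunit, measured 67.0 ± 18.8 (SD, n = 3) in adult cornea and 33.7 ± 7.07 (SD, n = 2) in lens and was not tested. Rpsa, the small-subunit protein also described as a laminin receptor, measured 2107, 2266 and 2293 in adult cornea, 2481 and 2685 in P10 cornea, 2126 and 1971 in lens and 2466 and 2689.7 in tendon. The lens arrays were not all lowest, since adult cornea replicate 1 lay between them, and no comparison was called.

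Probe sets annotated with several symbols were not members, because such probes can read related copies. Of these, 39 carried a symbol of a ribosomal protein, for 31 genes, 30 of which had no member probe set. Among the 28 that were tested, limma called none between the corneas (4.57% of all tested probe sets were), and none had an unadjusted p under 0.05 there. Of the 28, 7 were higher in adult cornea than in lens (27.2% of all tested probe sets were) and 10 higher than in tendon (16.1%). In P10 cornea 5 were higher than in lens (31.6%) and 8 higher than in tendon (15.7%), and between lens and tendon 7 were higher in lens (22.6%) and 2 lower (26.4%). The median differences for adult cornea were 0.12 against lens and 0.25 against tendon. A single symbol does not settle what a member probe set reads either. Of the 35 member probe sets, 9 bear a suffix other than the plain one, among them those of Rpl41, Rps28, Rpl7, Rps24, Rps27l and Rps13.

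Other genes of the translation machinery, from lists drawn up with earlier results of these data known, were read from the same fit. Limma called none of their 111 tested members between adult and P10 cornea, where 4.57% of all tested probe sets were called. Of the 111, 10 had an unadjusted p under 0.05, and quantile normalization called 1 gene of ribosome biogenesis as lower. For all tested probe sets, the background to the counts that follow, 27.2% were higher and 24.0% lower in adult cornea than in lens, 16.1% and 18.9% than in tendon, and 22.6% and 26.4% in lens than in tendon. Of 12 tested genes for elongation factors and other TOP mRNAs, 1 was higher and 3 lower in adult cornea than in lens, and 2 were higher and 1 lower than in tendon. After quantile normalization these counts were 5 and 3 against lens and 5 and 1 against tendon. Between lens and tendon 4 were higher and 3 lower. Eef1a2, the elongation factor 1A form of muscle and neurons, measured 218, 402 and 392 in adult cornea, 348 and 287 in lens and 3303 and 3596 in tendon. Both tendon arrays lay above all others, and the difference between adult cornea and tendon was -3.34 ± 0.26 on the log2 scale (SE, 10.1-fold, adjusted p = 4.87e-06). The muscle markers of the tendon arrays, given above, moved with it, and their part was not tested. Pabpc1, the poly(A)-binding protein, measured 2385 and 1797 in lens and 699.6 and 754 in tendon, a difference of 1.49 ± 0.28 on the log2 scale (SE, 2.81-fold, adjusted p = 0.00137).

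Of 24 tested initiation factors, 4 were higher and 4 lower in adult cornea than in lens, where 51.2% of all tested probe sets were called, and 7 were higher and 1 lower than in tendon, where 35.0% were; quantile normalization gave 8 higher and 4 lower against lens and 8 higher and 1 lower against tendon. P10 cornea had 9 higher and 3 lower than lens (31.6% and 19.4% of all tested) and 7 higher than tendon (15.7%). Eif5b, the GTPase that joins the subunits, measured 223, 145 and 134 in adult cornea and 1661 and 1728 in lens, a difference of -3.25 ± 0.23 on the log2 scale (SE, 9.53-fold, adjusted p = 2.33e-06). Both lens arrays lay above every other array. Eif6, which keeps the large subunit from joining too early, went the other way, with 188, 258 and 175 in adult cornea, 40.8 and 19.7 in lens and 61.8 and 72.6 in tendon. Adult cornea exceeded lens by 2.29 ± 0.24 on the log2 scale (SE, 4.89-fold, adjusted p = 3.36e-05) and tendon by 1.41 ± 0.24 on the log2 scale (SE, 2.65-fold, adjusted p = 0.00132). These calls held in the 18 alternatives run on them. The lens and tendon values of Eif6 lay under the medians of their arrays, so it passed the filter through the cornea arrays. Its differences are therefore a description.

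Of 20 tested genes of ribosome biogenesis, 9 were higher and 5 lower in adult cornea than in lens (27.2% and 24.0% of all tested), and 4 were higher and 2 lower than in tendon (16.1% and 18.9%). Between lens and tendon 4 were higher and 7 lower in lens (22.6% and 26.4%). Nhp2, of the particles that guide pseudouridylation of ribosomal RNA, measured 209, 329.8 and 204 in adult cornea and 22.1 and -44.6 in lens, where the value under 0 was treated as 0. All adult cornea arrays lay above both lens arrays, and no fold is given because its size follows from that floor. Mybbp1a, a nucleolar protein, was lower in adult cornea (175, 95.0 and 189) than in tendon (1026 and 615), a difference of -2.31 ± 0.35 on the log2 scale (SE, 4.97-fold, adjusted p = 0.00051). Calls of this list thus lay on both sides of 0. Among 4 tested regulators, Rps6kb2, which encodes the S6 kinase 2, was called, with 585 and 635 in lens and 276, 253 and 214 in adult cornea, a difference of -1.25 ± 0.18 on the log2 scale (SE, 2.38-fold, adjusted p = 0.000293).

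Mitochondrial ribosomal proteins, which share no subunit with the cytosolic ribosome, were the largest comparison list, with 51 tested genes. Of these, 13 were higher and 8 lower in adult cornea than in lens, where 51.2% of all tested probe sets were called. Against tendon 3 were higher and 7 lower, where 35.0% were called, and between lens and tendon 11 were higher and 15 lower in lens, where 49.0% were. Mrps33 measured 659.7 and 556 in lens and 214, 165 and 148 in adult cornea, a difference of -1.71 ± 0.23 on the log2 scale (SE, 3.28-fold, adjusted p = 0.000147), with no overlap between the groups. Their median difference between adult cornea and lens was 0.06, against 0.31 for the cytosolic genes and 0.08 over all tested probe sets. Fau, measured as the only gene of those fused to ubiquitin-like proteins, was too low to be tested.

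**Figure D5:**
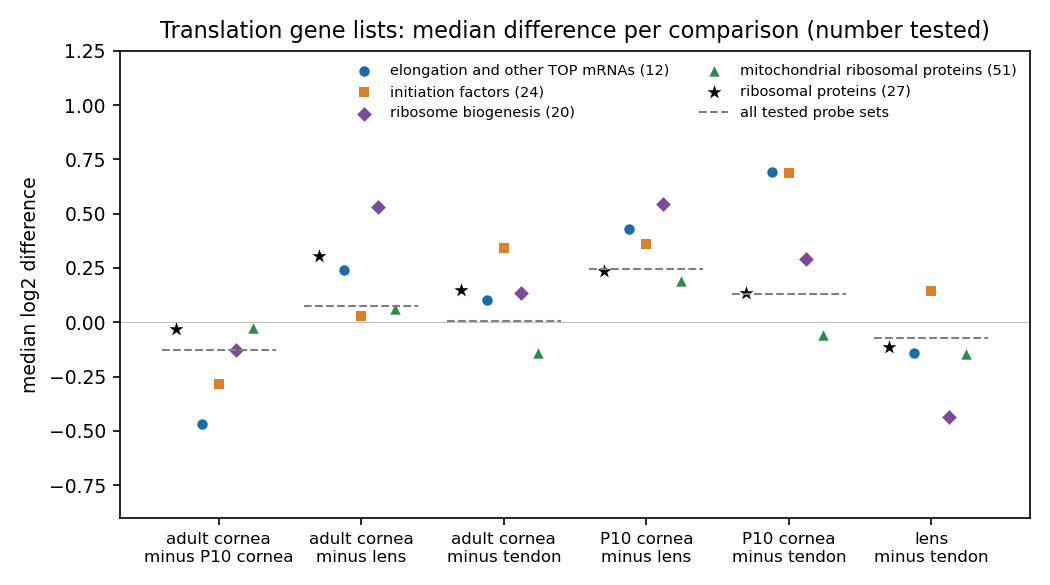
Median log2 difference of each translation gene list per comparison, with the number of genes tested in the legend; stars mark the ribosomal protein genes and dashed lines all tested probe sets. Ribosomal proteins lie above all tested in adult cornea minus lens (0.31 against 0.08) and near them in P10 cornea minus lens (0.24 against 0.25); other scalings turn the sign of medians that lie near 0, among them the mitochondrial list in P10 cornea minus lens and the ribosomal proteins in lens minus tendon.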

How the data were processed

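Biotin-labelled RNA was hybridised to Affymetrix mouse arrays, 9 in all. The authors deposited intensity values, 1 linear index for each probe set. The design text of the series says that the authors ran Microarray Suite and then dChip, with invariant-set normalization and a model-based index, and the submitters' processing notes name MAS5. The sources used here do not settle which of these gave the values. Every array holds values below 0, between 157 and 543 of them. The number of arrays limits the precision.

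Of 12488 probe sets, 66 controls were left out; 10833 carried 1 symbol, 396 several and 1193 none. The Entrez identifiers of all 35 members matched the RefSeq gene table. The highest trimmed mean of an array was 1.17 times the lowest, under the limit of 1.25 for rescaling, and the deposited scaling was kept. Values below 0 were set to 0, 16 was added and log2 taken, so folds are on the log2(index + 16) scale and understate those of low genes. Tests covered the 8154 probe sets at or above the median of the array on 2 or more of the 9 arrays. In R 4.3.3, limma 3.58.1 fitted 1 mean per group over all arrays (eBayes with a trend, 5 residual and 4.93 prior degrees of freedom). Tests were two-sided, with Benjamini-Hochberg adjustment over all tested probe sets within a comparison. Simulated data had normal noise, with 100 of 8154 probe sets changed at each size in 1 group. The fit recovered between 30% and 46% of those changed 2-fold and between 82% and 91% of those changed 4-fold, in the 6 comparisons. Of its calls there, between 2.38% and 8.8% were false. Every comparison of the data called more probe sets than were changed in the simulation, so these shares need not carry over.

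Named genes were, per comparison, the 5 largest called rises and falls without overlap between groups, the 3 highest and 3 lowest members, the 3 with the widest span and a list of paralogs and reference genes; of each other list, up to 4 called genes. The members, lists and rules were chosen with earlier results of these data known. Alternatives covered pseudocounts, filters on low values, scaling, the samples fitted, a replicate block, the mean over probe sets, the methods' t-test and leaving out each array; counting probe sets with several symbols was added after seeing the data.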

Additional observations from a re-analysis of the deposited data

How the results depend on the processing

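Of the counts of called ribosomal protein genes, 88 of 126 stayed within 1.5 times the reported one, and 107 of 114 medians moved by less than 1 SD between arrays, which are different limits. Of 34 called differences of members, 11 held in all 19 alternatives of the limma fit, which leave out the methods' t-test, and 12 in every single-array omission. Among the 11 are differences of Rps4l and that of Rpl13a between lens and tendon. These are descriptions because of how the 2 genes passed the filter. Between adult and P10 cornea the count was 0 throughout, except 1, that of Rpl22, for the mean over probe sets. For the single omissions, the fits of only the groups compared and a pseudocount of 1, the share of all tested probe sets called is not given. For adult cornea against lens (9), trimmed mean scaling gave 14, the fit of only the groups compared 4, the methods' t-test 1 and adding probe sets with several symbols 16; single omissions gave 4 to 12. Against tendon (7), quantile normalization gave 18, the t-test 2 and adding several symbols 17; omissions gave 2 to 8. For P10 cornea against lens (7), quantile normalization gave 11, where it called 50.6% of all tested probe sets. Median centring gave 3, only the groups compared 2, the t-test 1 and several symbols 12, and omissions gave 2 to 11. Against tendon (4), quantile normalization gave 16, only the groups compared 7, the t-test 2 and several symbols 12; omissions gave 2 to 6. For lens against tendon (7), a pseudocount of 1 and the fit of only the groups compared gave 4 each, the t-test 1 and several symbols 16; omissions gave 3 to 10. After Benjamini-Hochberg adjustment the t-test called 0, 1, 2, 0, 0 and 2 members in the order adult against P10, lens and tendon, P10 against lens and tendon, and lens against tendon.

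Medians are given relative to all tested probe sets. Adult cornea against lens (0.23) gave 0.15 with the filter at 5 of 9 arrays and 0.12 with the mean over probe sets, and 0.19 to 0.30 in single omissions. Quantile normalization gave 0.43 for adult cornea against tendon (0.14), 0.085 for P10 cornea against lens (-0.012), 0.41 for P10 cornea against tendon (0.00) and 0.16 for lens against tendon (-0.04). Single omissions for P10 cornea against lens gave -0.012 to 0.069. Median centring moved the median of all tested probe sets from 0.25 to 0.01 for P10 cornea against lens, from 0.13 to -0.02 against tendon and from -0.13 to 0.06 between the corneas. The share of all calls that were higher then went from 62.0% to 48.0%, from 58.7% to 45.6% and from 15.3% to 29.2%. The median percentile within an array fell to 95.8, 95.5, 94.3 and 94.2 in adult cornea, P10 cornea, lens and tendon with the mean over probe sets, and was 99.2, 99.2 and 98.5 in adult cornea, P10 cornea and tendon over tested probe sets.

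The mean over probe sets reversed Rps4x, to -0.26 and -0.34 for adult and P10 cornea against lens and 0.21 for lens against tendon, since 1 of its probe sets was high in lens alone. Quantile normalization reversed lens against tendon for Rpl37a (0.051), Rplp0 (0.037), Rps24 (0.094) and Rpsa (0.041); the cause was not tested. The replicate numbers do not pair the samples: deviations of same-numbered arrays correlated between -0.363 and 0.201. With the replicate block the calls were 5 for adult cornea against lens and 4 for lens against tendon. Members near or below the array median are limited by signal over background.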
